A study of Mus musculus with 8 samples.

Results

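The genes of antigen presentation by the major histocompatibility complex (MHC) were examined in macrophages sorted from mouse mammary tumours, with and without the transcription factor gene E2f3. Members were the probe sets annotated with exactly 1 gene symbol beginning with H2- (H2-Ke genes left out), together with Cd74, Ciita, B2m, Tap1, Tap2, Tapbp, Nlrc5, Psmb8, Psmb9, Psmb10, Ifi30 and Erap1. This gave 34 genes of the 18193 with a probe set on the array, each represented by its brightest probe set. By role they were 5 class II chains, 7 genes of class II loading and regulation, 13 class I heavy chains and 9 genes of class I loading and processing. Of the 34, 26 had a mean log2 signal above the 40th percentile of all genes (5.998) and were tested, and the other 8, all class I heavy chains, are given as values.

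MHC class II molecules present peptides from endocytosed proteins to CD4 T cells. Their alpha and beta chains are guarded by the invariant chain until the H2-DM proteins exchange it for peptide, and the coactivator CIITA drives nearly all genes of the set. MHC class I molecules present peptides of cytosolic origin to CD8 T cells. Their peptides are cut by the immunoproteasome, carried into the endoplasmic reticulum by the TAP transporter and bound by a heavy chain paired with beta 2-microglobulin, and NLRC5 is the corresponding coactivator. Interferon gamma raises both sets in macrophages.

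The cells were F4/80-positive tumour-associated macrophages obtained by flow sorting from FVB mice aged 80 days that carried the PyMT transgene, a viral oncogene causing mammary tumours. All 8 arrays came from mice with E2f3 flanked by recombination sites (E2F3f/f). The 4 control arrays (PyMT;E2F3f/f, replicates B, C, D and G) had no Cre recombinase, and the 4 E2f3-deleted arrays (PyMT;Lys Cre;E2F3f/f, replicates A, E, F and H) carried Lys Cre, Cre under the lysozyme gene, which is active in macrophages and other myeloid cells. The letter of the scan file named for each array differs from the letter in its title on all but replicate H. Groups follow titles and genotypes, which are in accord, but if the scan letters stood for the title letters, control B and E2f3-deleted F would change places. Genes at an unadjusted p under 0.05 would then number 449 in place of 1547. Loss of E2f3 and Cre itself cannot be told apart in this design. The labels do not tie each array to an animal of its own, and p-values therefore reflect only the array-to-array spread within a group, which may be technical.

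The defining macrophage genes were strongly present, with a log2 signal of 14.33 ± 0.050 (control) and 14.33 ± 0.039 (E2f3-deleted; SD over 4 arrays) for Csf1r and of 12.88 ± 0.078 and 12.69 ± 0.068 for Adgre1, which encodes F4/80. E2f3 itself was at 7.66, 7.63, 7.83 and 7.58 in controls B, C, D and G and at 7.65, 7.54, 7.53 and 7.79 in E2f3-deleted A, E, F and H. Its groups overlapped, and since the labels do not give the deleted part, this probe set does not check them. Array medians ran from 5.65 to 5.69, and E2f3-deleted replicate H stood apart, with a mean correlation of 0.983 to its own group against 0.990 to 0.991 for A, E and F and 0.995 among controls. Endothelial markers were higher in the E2f3-deleted group by a median of 1.37 log2 units (15 of 15 tested), and macrophage markers were lower, with a median difference of −0.16 (8 of 8), with 0 of either list past an adjusted p of 0.05 in limma and 14 of 15 and 3 of 8 at an unadjusted p under 0.05, against 14.2% of all genes tested. Differences below are the E2f3-deleted mean less the control mean in log2 units, and with 4 arrays per group their number limits the precision.

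Upstream sequences are shown for 4 members, the class II chain genes H2-Aa and H2-Eb1 and the class I heavy chain genes H2-K1 and H2-D1. Each is the 250 bases before the annotated start, from RefSeq (GRCm38.p6, strain C57BL/6J, which carries other MHC alleles than FVB), with motif matches on either strand in capitals. The motifs are ATTGG (written CCAAT on the opposite strand), the core of the Y box of class II promoters, and the palindromic kappa B enhancer of class I genes, the first capitals in H2-K1 and H2-D1.
H2-Aa, chr17:34287824-34288073, minus strand: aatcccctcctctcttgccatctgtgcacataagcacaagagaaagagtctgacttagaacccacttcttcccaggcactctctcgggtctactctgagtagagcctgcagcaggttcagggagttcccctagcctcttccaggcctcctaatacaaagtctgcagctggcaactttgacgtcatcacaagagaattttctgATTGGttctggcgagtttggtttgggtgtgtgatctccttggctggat
H2-Eb1, chr17:34305617-34305866, plus strand: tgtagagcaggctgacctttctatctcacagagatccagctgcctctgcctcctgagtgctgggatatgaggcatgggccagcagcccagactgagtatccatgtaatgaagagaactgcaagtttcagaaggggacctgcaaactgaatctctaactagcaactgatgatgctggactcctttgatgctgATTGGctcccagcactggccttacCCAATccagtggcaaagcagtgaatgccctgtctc
H2-K1, chr17:34000334-34000583, minus strand: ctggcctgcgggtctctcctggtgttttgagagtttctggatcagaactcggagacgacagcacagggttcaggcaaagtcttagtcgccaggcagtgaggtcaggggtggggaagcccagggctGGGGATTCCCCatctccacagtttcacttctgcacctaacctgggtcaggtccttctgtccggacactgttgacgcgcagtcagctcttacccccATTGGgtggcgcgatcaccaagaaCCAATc
H2-D1, chr17:35262844-35263093, plus strand: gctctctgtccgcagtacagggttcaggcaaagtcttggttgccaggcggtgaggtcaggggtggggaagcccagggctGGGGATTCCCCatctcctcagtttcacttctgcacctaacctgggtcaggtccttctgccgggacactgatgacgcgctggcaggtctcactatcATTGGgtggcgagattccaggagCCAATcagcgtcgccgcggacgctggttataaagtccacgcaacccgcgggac

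A window was found for 23 of the 34 members, 19 of them on chromosome 17, where the MHC lies. The kappa B palindrome occurred in H2-K1 and H2-D1 alone among the 23 and in 10 of all 32851 windows of this length (0.0304%). It began 125 bases before the start in H2-K1 and 171 before it in H2-D1. ATTGG was held by 7 of 8 class II members and 10 of 15 class I members with a window, against 33.8% of all windows. The longer CTGATTGG, chosen after the sequences were seen and containing the ATTGG match, was held by H2-Aa and H2-Eb1 among 4 of 8 class II members, and by 5 of 15 class I members, H2-D1 included, against 3.83% of windows. The core of the interferon-stimulated response element was found in B2m alone (2.98% of windows) and the X box fragment GCAACAG in none of the 23 (4.46% of windows). These are matches to the exact letters searched, so variants of a motif, such as other forms of the X box, are missed. They were not tested as binding sites.

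Across the set the E2f3-deleted and control macrophages differed little. No tested member passed an adjusted p of 0.05 (limma, smallest adjusted p = 0.313, H2-T3), as was so for 0 of the 10916 genes tested (0%). At an unadjusted p under 0.05 there was 1 of 26 members, H2-T3, against 14.2% of all genes tested. The groups did not overlap in 0 of 26, against 8.48% of all genes tested. The median difference was 0.03 over the 26 members, with 16 higher and 10 lower, and −0.03 over all genes tested, of which 41.3% were higher. The median size of a difference without its sign was 0.052 for the members and 0.098 for all genes tested, while the median standard errors were 0.085 and 0.087. Of the 26 members, 10 lay above the 90th percentile of mean signal, where array signals may be compressed, which was not tested. For those 10 the median size was 0.044, against 0.062 for all 1092 genes that bright. The intervals of 22 of the 26 members lay within 0.5 log2 units of 0, and those of H2-Ea, H2-Oa, H2-Ob and Ciita were wider. The plot of differences shows these intervals.

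**Figure D1:**
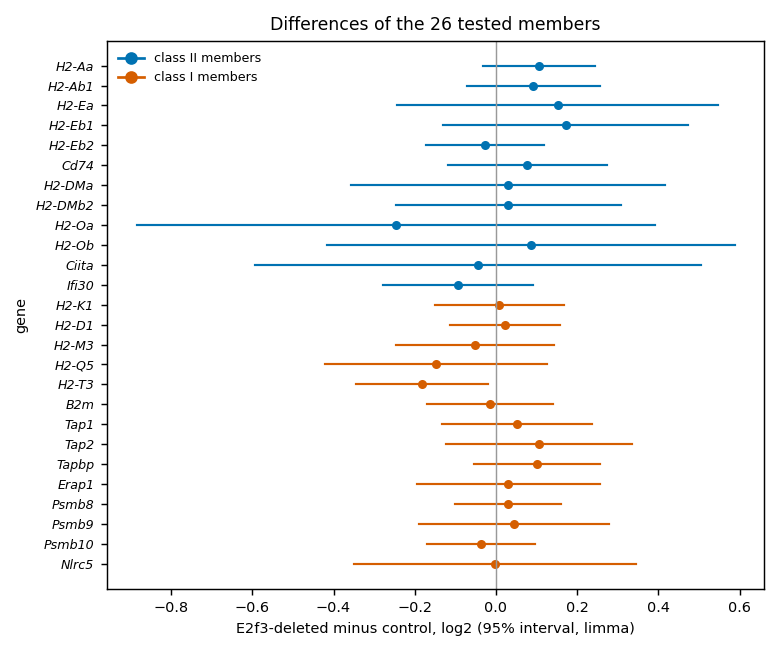
Difference in log2 signal (horizontal axis, E2f3-deleted minus control) with its 95% limma interval for the 26 tested members (vertical axis), class II in blue and class I in orange, n = 4 arrays per group. All intervals but that of H2-T3 (−0.34 to −0.02) include 0, and that of H2-Oa is the widest (−0.88 to 0.39).

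The class II chains H2-Aa, H2-Ab1, H2-Eb1 and H2-Ea had positive differences of 0.09 to 0.17, each smaller than its interval. H2-Aa, the alpha chain of the I-A molecule, had a log2 signal of 14.02, 13.99, 13.87 and 13.91 in controls B, C, D and G. In E2f3-deleted A, E, F and H it had 14.10, 14.12, 14.01 and 13.98. Replicates A and E lay above all controls and F and H among them, so the groups overlapped. The difference was 0.11 (SE 0.060, 95% interval −0.03 to 0.24; limma, adjusted p = 0.446), a ratio of 1.08.

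H2-Ab1, the partner beta chain, read 13.94, 13.89, 13.76 and 13.79 in the controls (B, C, D, G) and 13.99, 14.05, 13.91 and 13.80 in E2f3-deleted A, E, F and H. Again A and E were above every control and H was among them. Its difference of 0.09 (SE 0.071, interval −0.07 to 0.26) did not pass (limma, adjusted p = 0.566). H2-Eb1, the beta chain of the I-E molecule, had 10.21, 10.17, 9.80 and 9.93 in controls and 10.37, 10.29, 10.24 and 9.89 in E2f3-deleted A, E, F and H. Here A, E and F exceeded all controls and H lay between controls D and G. The difference of 0.17 (SE 0.131, interval −0.13 to 0.47; limma, adjusted p = 0.561) became 0.27 without replicate H (interval 0.02 to 0.53, adjusted p = 0.332). H2-Eb1 was then the 1 member of 26 at an unadjusted p under 0.05 and the 1 member whose groups did not overlap, against 13.8% and 12.7% of all genes tested without that array.

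Array signals do not show whether the I-E molecule was formed in these FVB cells. H2-Ea encodes the I-E alpha chain in strains with a functional gene. Its signal was 10.79, 10.56, 10.25 and 10.48 in controls and 11.13, 10.39, 10.63 and 10.55 in E2f3-deleted A, E, F and H, with only A outside the controls (difference 0.15, SE 0.172, interval −0.24 to 0.55; limma, adjusted p = 0.697). Without replicate A the difference of H2-Ea was 0.0011. H2-Eb2, a second and dimmer beta gene, stayed within 6.16 to 6.41 on all 8 arrays, and its 4 E2f3-deleted values (6.24, 6.23, 6.24 and 6.21) lay inside the range of its controls (6.16, 6.24, 6.23 and 6.41).

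**Figure D2:**
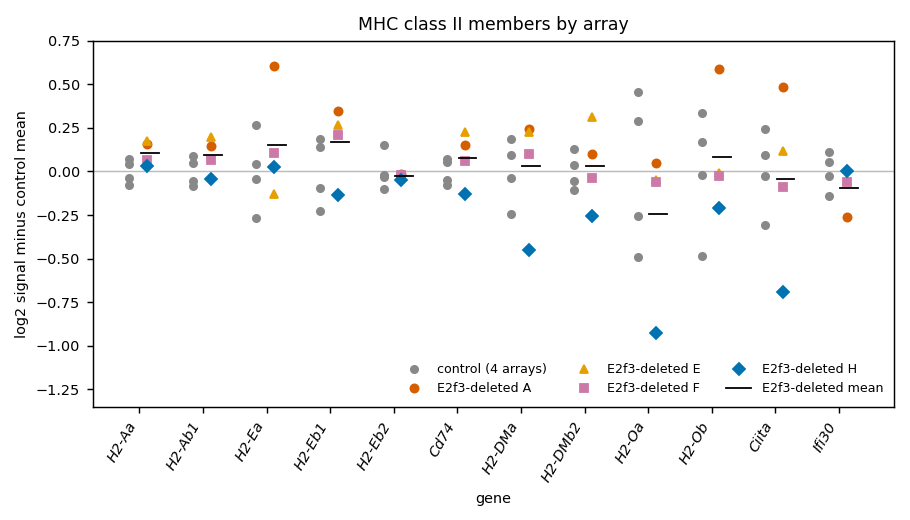
Log2 signal minus the control mean (vertical axis) for each tested class II member (horizontal axis): grey points are the 4 control arrays, coloured symbols the 4 E2f3-deleted arrays by replicate, and the black bar their mean. Replicate H (blue diamond) is the lowest of all 8 arrays for Cd74, H2-DMa, H2-DMb2, H2-Oa and Ciita.

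Several of these genes had further, dimmer probe sets, which were tested one by one over all 34945 probe sets with 1 symbol. The 4 probe sets of H2-Aa all had positive differences. They were 0.11 and 0.09 at mean signals of 14.00 and 13.76, 0.12 at 11.15 and 0.38 at 8.35 (SE 0.150; limma, adjusted p = 0.426). H2-Ab1 had 0.09 at 13.89, 0.13 at 12.77 and 0.18 at 12.60, and H2-DMa 0.03 at 11.81 and 0.20 at 8.08. Elsewhere the probe sets of a gene went both ways, as for H2-DMb2, with 0.03 at 6.47, −0.18 at 6.01 and −0.03 at 4.09, and Ciita, with −0.05 at 8.07, 0.05 at 6.81 and −0.10 at 4.94. In all, 6 of the 15 members with several probe sets had differences of both signs. Of the 66 probe sets of members, 5 had an unadjusted p under 0.05, 2 higher and 3 lower, against 10.9% of all such probe sets, and 0 passed after adjustment (limma, smallest adjusted p = 0.203). Signals of different probe sets are not comparable as amounts of RNA.

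**Figure D3:**
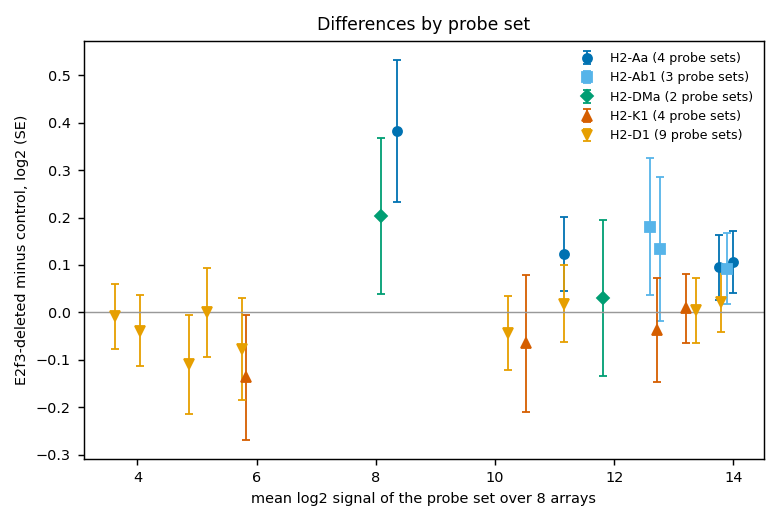
Difference in log2 signal with its standard error (vertical axis, E2f3-deleted minus control) against the mean log2 signal over 8 arrays (horizontal axis) for each probe set of 5 members. All probe sets of H2-Aa, H2-Ab1 and H2-DMa lie above 0, the highest being the dimmest of H2-Aa at 0.38, and those of H2-K1 and H2-D1 lie between −0.14 and 0.02.

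Among the genes of class II loading and regulation, 4 of 7 had positive and 3 negative differences, with a median of 0.03, and none passed the threshold. Over all 12 class II members the median was 0.05, and it turned to −0.022 without control D and −0.015 without E2f3-deleted A. Cd74, the invariant chain that escorts new class II molecules, had 14.00, 13.97, 13.85 and 13.87 in controls. E2f3-deleted replicates A and E, at 14.08 and 14.15, were above them, F at 13.98 was among them and H at 13.79 was below. The difference was 0.08 (SE 0.085, interval −0.12 to 0.27; limma, adjusted p = 0.689).

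Ciita, the coactivator of the class II genes, spread more widely, with 8.33, 8.18, 7.78 and 8.06 in controls and 8.57, 8.20, 7.9998 and 7.40 in E2f3-deleted A, E, F and H. The E2f3-deleted group held both the highest and the lowest of the 8 values, A and H, which differed by 1.18. Its difference of −0.05 (SE 0.239, interval −0.59 to 0.50; limma, adjusted p = 0.944) changed sign to 0.17 without replicate H. The second brightest of the 3 probe sets of Ciita, at a mean of 6.81, kept this order within the E2f3-deleted group, with 7.46, 6.96, 6.80 and 6.10. The dimmest, at a mean of 4.94, did not, with 5.02, 5.42, 4.42 and 4.69 in A, E, F and H.

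H2-DMa, a chain of the peptide-exchange factor, was at 11.79 ± 0.187 in controls and 11.82 ± 0.328 after E2f3 deletion (SD, n = 4 each), and H2-DMb2, a beta chain of the same factor, at 6.45 ± 0.105 and 6.48 ± 0.240. H2-Oa and H2-Ob encode H2-O, an inhibitor of H2-DM found mainly in B cells. H2-Oa read 8.19, 7.64, 7.41 and 8.35 in controls and 7.95, 7.85, 7.84 and 6.97 in E2f3-deleted A, E, F and H, where H was the lowest of all arrays (difference −0.25, SE 0.277; limma, adjusted p = 0.696; −0.020 without H). H2-Ob was at 9.10 ± 0.355 in controls and 9.19 ± 0.348 in E2f3-deleted macrophages. Ifi30, a lysosomal thiol reductase that opens antigens for class II loading, had 13.23, 13.15, 13.04 and 13.29 in controls and 12.92, 13.13, 13.12 and 13.18 in E2f3-deleted macrophages. Only its replicate A was below all controls (difference −0.09, SE 0.081; limma, adjusted p = 0.608).

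The principal class I heavy chains did not differ by more than their spread. H2-K1 had 13.15, 13.29, 13.18 and 13.18 in controls and 13.06, 13.21, 13.24 and 13.33 in E2f3-deleted A, E, F and H, so that A was the lowest and H the highest of all arrays. The difference was 0.0081 (interval −0.15 to 0.17; limma, adjusted p = 0.965). H2-D1 likewise had 13.74, 13.86, 13.77 and 13.77 in controls and 13.71, 13.79, 13.82 and 13.90 in E2f3-deleted A, E, F and H (difference 0.02, interval −0.11 to 0.16; limma, adjusted p = 0.877). Both directions turned with the choice of probe set, and without replicate H they were −0.032 and −0.0099. H2-D1 was covered by 9 probe sets with mean signals from 3.61 to 13.80 and H2-K1 by 4 from 5.81 to 13.20. The brightest of each are of the type whose probes can bind related sequences, so heavy chain genes, which are alike in sequence, may share signal.

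Nonclassical class I genes had small differences too. H2-T3, the thymus leukaemia antigen, read 7.29, 7.19, 7.14 and 7.06 in controls and 6.95, 7.06, 7.06 and 6.88 in E2f3-deleted A, E, F and H. Replicates A and H were below every control, and E and F lay just above the lowest control, G. The difference was −0.18 (SE 0.071, interval −0.34 to −0.02, unadjusted p = 0.0331; limma, adjusted p = 0.313), and over the arrays left out one at a time it ran from −0.22 to −0.14. With the groups taken from the scan file letters it was −0.063 (limma, unadjusted p = 0.518, adjusted p = 0.915). The dimmer probe set of H2-T3, at a mean of 5.52, had −0.097 (limma, unadjusted p = 0.261, adjusted p = 0.668). H2-Q5 had 7.20, 7.27, 7.44 and 7.18 in controls and 6.87, 6.99, 7.31 and 7.32 in E2f3-deleted macrophages, A and E below the controls and F and H among them (difference −0.15, SE 0.119; limma, adjusted p = 0.579). H2-M3, which presents formylated peptides, was at 11.40 ± 0.102 in controls and 11.35 ± 0.138 in E2f3-deleted macrophages (difference −0.05).

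The 8 dim heavy chain genes H2-Bl, H2-D4, H2-M10.1, H2-M9, H2-Q10, H2-Q2, H2-T18 and H2-T24 had differences from −0.18 (H2-D4) to 0.78 (H2-Q2). H2-Q2 had 2.82, 2.79, 3.13 and 2.84 in controls and 3.71, 3.91, 3.66 and 3.41 in E2f3-deleted A, E, F and H, with no overlap. These signals are near the bottom of the scale, where only 8.2% of genes were dimmer. H2-M10.1 did not overlap in the other direction, with 5.59, 5.69, 5.63 and 5.60 in controls and 5.45, 5.51, 5.48 and 5.48 in E2f3-deleted macrophages. H2-M9 had 5.19, 5.77, 4.96 and 5.76 in controls and 6.53, 6.15, 6.49 and 4.64 in E2f3-deleted A, E, F and H, with 3 arrays above the controls and H below them. The groups did not overlap in these 2 of the 34 members, against 7.06% of all genes with a probe set. When no filter was applied, 4 of 34 members (H2-Q2, H2-M10.1, H2-T18 and H2-T3) had an unadjusted p under 0.05, against 11.9% of genes, and H2-Q2 had an adjusted p of 0.186 (limma).

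In class I loading and processing, 6 of 9 differences were positive and 3 negative, with a median of 0.03, and E2f3-deleted replicate H was the highest array for all but Psmb10. Without that array the median turned to −0.041, and Erap1 (−0.063), Psmb9 (−0.053) and Psmb8 (−0.0013) turned negative. B2m, the light chain shared by all class I molecules, had 14.02, 14.06, 14.03 and 14.07 in controls and 13.88, 14.02, 14.04 and 14.18 in E2f3-deleted A, E, F and H. The controls were close together, with A below and H above them (difference −0.02, interval −0.17 to 0.14; limma, adjusted p = 0.933). When single arrays were left out, 6 of these 9 genes changed sign at least once (B2m, Erap1, Nlrc5, Psmb8, Psmb9 and Tap1), as did 13 of all 26 tested members.

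Tap1, a subunit of the peptide transporter, had 8.94, 8.64, 8.88 and 8.92 in controls and 8.86, 8.89, 8.83 and 9.01 in E2f3-deleted macrophages (difference 0.05, interval −0.13 to 0.24; limma, adjusted p = 0.781). Tap2, the other subunit, had 7.58, 7.77, 7.66 and 7.55 in controls and 7.68, 7.70, 7.59 and 8.02 in E2f3-deleted A, E, F and H. For both only H exceeded the controls, and the difference of Tap2 was 0.11 (SE 0.100; limma, adjusted p = 0.636) and 0.017 without it. Tapbp, or tapasin, which bridges the transporter and the heavy chain, had 10.87, 10.85, 10.78 and 10.78 in controls and 10.82, 10.92, 10.86 and 11.08 in E2f3-deleted macrophages, E and H lying above the controls (difference 0.10, SE 0.068; limma, adjusted p = 0.508). Erap1, a trimming peptidase of the endoplasmic reticulum, was at 9.11 ± 0.061 in controls and 9.14 ± 0.197 in E2f3-deleted macrophages.

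Psmb8, a catalytic subunit of the immunoproteasome, had 11.18, 11.12, 11.10 and 11.20 in controls and 11.12, 11.21, 11.12 and 11.27 in E2f3-deleted macrophages, with E and H above the controls (difference 0.03, interval −0.10 to 0.16; limma, adjusted p = 0.830). The other inducible subunits Psmb9 (difference 0.04) and Psmb10 (−0.04) had intervals of −0.19 to 0.28 and −0.17 to 0.10. Nlrc5, the class I coactivator, had 8.02, 7.92, 8.10 and 8.37 in controls and 7.96, 7.93, 8.002 and 8.51 in E2f3-deleted A, E, F and H, with replicate H standing clear of the other E2f3-deleted arrays (difference −0.0032, interval −0.35 to 0.34; limma, adjusted p = 0.993).

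**Figure D4:**
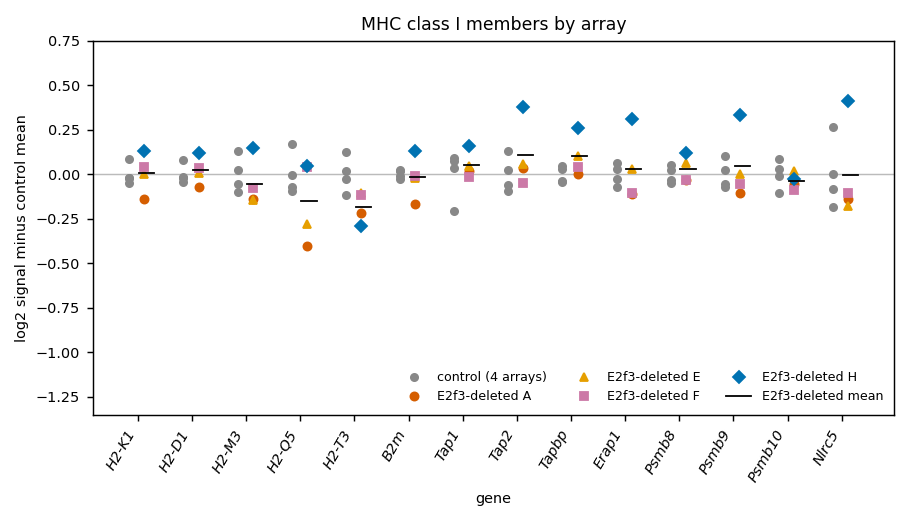
Log2 signal minus the control mean (vertical axis) for each tested class I member (horizontal axis), with the symbols of the class II plot: grey control arrays, coloured E2f3-deleted arrays, and a black bar at their mean. Replicate H (blue diamond) is the highest array for 8 of the 9 genes of loading and processing, from B2m to Nlrc5, and the lowest for H2-T3.

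Within the E2f3-deleted group, class I and class II genes ranked the arrays differently. Relative to the control mean, the median of the class II loading and regulation genes was 0.15, 0.12, −0.038 and −0.26 in E2f3-deleted A, E, F and H, and 0.17, 0.052, −0.25 and −0.026 in controls B, C, D and G. The class II chains had 0.16, 0.17, 0.064 and −0.042 in E2f3-deleted A, E, F and H, with control D the lowest array for 4 of the 5 chains. The class I loading genes had −0.054, 0.028, −0.047 and 0.26, and the class I heavy chains −0.14, −0.11, 0.036 and 0.12, both highest in replicate H. H was the highest array for 8 of 9 class I loading genes, against 18.8% of all genes tested, and the lowest for 5 of 7 class II loading and regulation genes, against 30.1%. This pattern was noticed after the values were seen and concerns 1 array, so it carries no test.

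Markers of other cells that carry class II varied over the same arrays. In bulk RNA, fewer cells of a type and less RNA per cell cannot be told apart. Of 10 dendritic cell markers 9 had a probe set and 5 passed the filter, with Zbtb46, Xcr1, Ccr7 and Dpp4 below it, and their mean log2 signal ran from 6.26 to 6.78 in controls and from 6.02 to 6.80 in E2f3-deleted macrophages. Relative to the control mean, their median was 0.39, 0.19, −0.11 and −0.37 in E2f3-deleted A, E, F and H, and 0.055, −0.085, −0.21 and 0.091 in controls B, C, D and G. The E2f3-deleted arrays had the same order as for the class II loading and regulation genes, while the control arrays did not, G being the highest here and B there. A low H was not particular to these lists. In E2f3-deleted A, E, F and H macrophage markers had medians of −0.19, −0.17, −0.11 and −0.34. T cell markers had 0.059, −0.15, −0.094 and −0.57, while for B cell markers E was the lowest.

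Of 8 B cell markers 7 had a probe set and 3 passed the filter, with Cd79a, Pax5, Fcer2a and Blk below it, and their mean log2 signal ran from 5.68 to 6.996 in controls and from 5.44 to 6.34 in E2f3-deleted macrophages. Their median was 0.24, −0.33, −0.53 and 0.60 in controls B, C, D and G, and −0.41, −0.69, −0.054 and −0.56 in E2f3-deleted A, E, F and H. The controls ranked as they did for H2-Oa, and the E2f3-deleted arrays did not, F being the highest here and A for H2-Oa. T cell markers (5 of 7 with a probe set, 2 above the filter) had a mean log2 signal of 5.82 to 6.40 in controls and 5.40 to 6.28 in E2f3-deleted macrophages. The part of these cells, and of the endothelial and epithelial RNA on the same arrays, in the class I and class II values was not tested. Over 16 endothelial genes with a probe set the median was 2.03, 1.11, 2.06 and −0.024 in E2f3-deleted A, E, F and H, and epithelial markers were higher by a median of 0.46 (10 of 10).

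**Figure D5:**
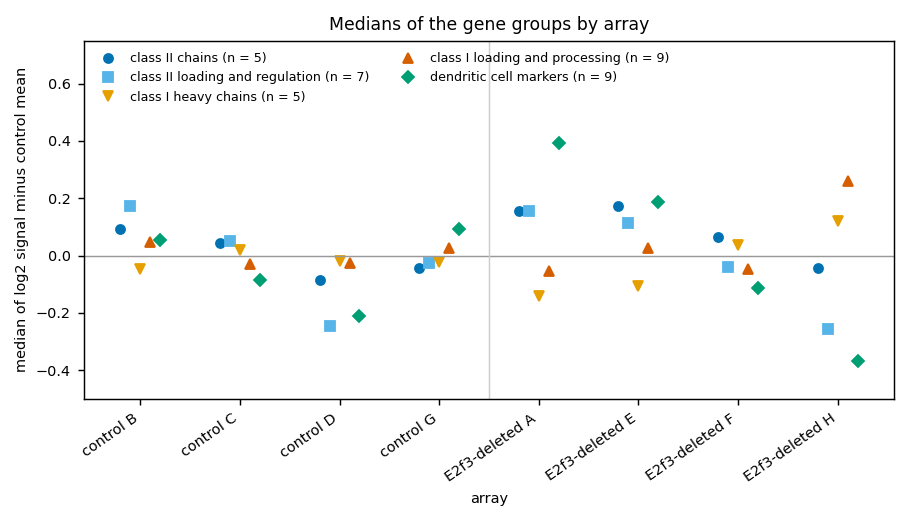
Median of log2 signal minus the control mean (vertical axis) on each of the 8 arrays (horizontal axis) for the 4 groups of MHC members and for 9 dendritic cell markers. On E2f3-deleted replicate H the class I loading genes are at 0.26 while the class II loading genes are at −0.26 and the dendritic cell markers at −0.37.

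Of 35 tested genes from 4 related lists, 0 passed an adjusted p of 0.05 (limma) and 2 (5.71%) had an unadjusted p under 0.05, against 14.2% of all genes tested. Their median size of difference without its sign was 0.095, against 0.052 for the MHC members and 0.098 for all genes tested. Of 15 regulators and proteases of the class II route 13 had a probe set and were tested, 2 with positive and 11 with negative differences (median −0.08). The 2 genes at an unadjusted p under 0.05 were both in this list and both lower, 15.4% of it, close to the 14.2% of all genes tested. They were Lgmn, the asparagine endopeptidase (difference −0.29, SE 0.082; limma, adjusted p = 0.234), and Ctsd, cathepsin D (−0.15, SE 0.054; limma, adjusted p = 0.283), and in both the groups did not overlap, which was so for 4 of the 35 (11.4%) and for 8.48% of all genes tested. Ctss, the cathepsin that degrades the invariant chain, had −0.0089 (interval −0.13 to 0.11), and Rfx5, which binds the X box of class II promoters, 0.12 (interval −0.05 to 0.30). Of the other transcription regulators in this list, Nfya had −0.18 (interval −0.37 to 0.01) and Rfxank −0.14 (interval −0.35 to 0.06). Rfxap had −0.09, Nfyb −0.06, Creb1 −0.0071 and Nfyc 0.10.

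Of 12 genes of class I peptide supply and quality control 10 were tested, with a median of −0.03 and 0 at an unadjusted p under 0.05. The constitutive proteasome subunit Psmb6 had −0.11 (interval −0.25 to 0.02; limma, adjusted p = 0.411) with groups that did not overlap, and the proteasome activator Psme1 had 0.07. Of 9 genes of interferon gamma signalling 7 were tested, with a median of −0.05 and 0 at an unadjusted p under 0.05. The transcription factors Irf1 and Irf8 had 0.14 (interval −0.13 to 0.41) and −0.14 (interval −0.34 to 0.06), and the receptor chains Ifngr1 and Ifngr2 −0.05 and −0.10. Of 8 class I-like genes outside the H2 symbols 5 were tested and 0 reached that p. Mr1, which presents vitamin B metabolites, had −0.19 with groups that did not overlap (SE 0.090; limma, adjusted p = 0.385), and Cd1d1, which presents lipids, 0.31 (SE 0.183; limma, adjusted p = 0.464).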

How the data were processed

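Total RNA of sorted macrophages was hybridised to Affymetrix arrays, per the labels' protocols. The values the authors deposited are log2 signals for 45101 probe sets of each array; RMA is named in the submitters' processing notes, with its version not given in the sources used here. As background, RMA makes array distributions alike. Genes were named from the platform's annotation: 34945 probe sets had 1 symbol, 932 several and 9160 none, besides 64 controls. The 16 probe sets with a member among several symbols were not analysed here.

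A 2-group model of all 8 arrays without covariates was fitted with limma (version 3.58.1, under R 4.3.3; lmFit, then eBayes), two-sided, and p-values were adjusted by Benjamini-Hochberg over the 10916 genes above the 40th percentile of mean signal. SE and 95% intervals are limma's. Titles share no replicate letters between groups. No array pair had over 0.317% identical values, so each counted once. In simulated arrays of the 10916 genes, the test recovered 71.6% of changes of 0.5 log2 units and 85.1% of changes of 1. The simulated noise was independent between genes, without effects shared over an array, so these shares may not hold for the real arrays. Members and lists were chosen with earlier results of these data known. Values on every array are given for the 11 members fixed by name (H2-Aa, H2-Ab1, H2-Eb1, Cd74, Ciita, H2-K1, H2-D1, B2m, Tap1, Nlrc5, Psmb8) and the 2 further members of smallest p per role; H2-D4 was added to the heavy chains, and H2-Q2, H2-M10.1 and H2-M9 were chosen after their values were seen. Alternatives were other probe set choices, filters, centring, array weights, each array left out, and groups by scan file letter.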

Additional observations from a re-analysis of the deposited data

Results flagged for a closer look

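In 3 of 68 groups of 4 arrays, 1 array lay far from the other 3 by Dixon's criterion at its 95% critical value, which chance meets in about 1 of 20 groups. Nlrc5 had 8.51 in E2f3-deleted replicate H, against 7.93 to 8.002 in the other E2f3-deleted arrays. H2-Oa had 6.97 in the same replicate, against 7.84 to 7.95. H2-Q2 had 3.13 in control replicate D, against 2.79 to 2.84 in the other controls, near the bottom of the scale.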

How the results depend on the processing

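No member passed an adjusted p of 0.05 in limma under any alternative run. The medians of the class II, class I heavy chain and class I loading members moved by less than the SD between arrays. Leaving out 1 of 4 arrays could hardly move them by more, so this is no sign of stability. Over single arrays left out, the median ran from −0.022 to 0.14 for class II and from −0.041 to 0.075 for class I loading, both changing sign. For class I heavy chains it ran from −0.12 to −0.0076. The count at an unadjusted p under 0.05 was 1 of 26, against 14.2% of all genes tested. It was 2 of 29 when all probe sets of a gene were averaged (14.7% of genes) and 4 of 34 without a filter (11.9%). It was 0 of 20 with the 60th percentile filter (13%) and 0 of 26 with array weights (16.1%). Groups by scan file letter gave 0 of 26 (4.11%). Those labels disagree with the titles, so that the group of 2 arrays, control B and E2f3-deleted F, is uncertain. With single arrays left out the count was 0 to 1 of 26 (9.24% to 17%), and 0 without control B, C or D or E2f3-deleted A. Over all 10916 genes, 0 passed the adjusted threshold, but 60 did without E2f3-deleted E and 14 without H, and the 1547 at an unadjusted p under 0.05 became 449 by scan file letter, 1009 without control B and 944 with the stricter filter. Of the 19 members tracked, 13 kept their direction in all alternatives that used all 8 arrays and gave them a value. The 6 that did not were near 0, and the cause was not tested. A change of filter leaves the values as they are and could not turn a direction. Nor could averaging probe sets for members with only 1. With averaged probe sets H2-K1 was −0.058, H2-D1 −0.026 and B2m 0.020; with probe sets without x_at or s_at endings H2-D1 was −0.044; with median centring H2-K1 was −0.0023; with array weights Ciita was 0.023 and Psmb8 −0.0005; by scan file letter Ciita was 0.12, H2-K1 −0.035, H2-D1 −0.018 and Nlrc5 0.0075. Over arrays left out, Ciita ran from −0.22 to 0.17, H2-K1 from −0.032 to 0.058, H2-D1 from −0.0099 to 0.054, B2m from −0.064 to 0.034, Tap1 from −0.016 to 0.082, Nlrc5 from −0.14 to 0.085, Psmb8 from −0.0013 to 0.050 and H2-Eb2 from −0.061 to 0.024. In an alternative chosen after seeing the data, dimmer probe sets had the opposite sign for Ciita (0.046), H2-K1 (−0.037, −0.065 and −0.14), H2-D1 (−0.044, −0.077, −0.0001, −0.11, −0.039 and −0.0085), B2m (0.055) and Tap1 (−0.11 and −0.018). The median turned sign for class I loading with array weights (−0.034) and for class I heavy chains without a filter or with the stricter filter (0.0081 in both). No paired analysis was possible because the replicate letters are not shared by the groups.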
